A study of Drosophila melanogaster with 15 samples.

Results

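Odorant receptor (Or) and ionotropic receptor (Ir) genes were followed through 15 RNA libraries of Drosophila melanogaster that carry the tissue label skeletal muscle. They comprised each gene symbol that begins with Or or Ir followed by a digit, together with Orco, and they were chosen by symbol alone. The rule took in 123 of the 15682 gene symbols, namely 61 Or genes counting Orco and 62 Ir genes. All 123 had at least 1 count in at least 1 library. The fly annotation (dm6) lists Ir48a, Ir51a, Ir60c and Or98P as pseudogenes.

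Odorant receptors are ion channels in the dendrites of olfactory sensory neurons, where a tuning Or subunit that binds odours pairs with the shared co-receptor Orco. Ionotropic receptors descend from glutamate receptors and likewise combine a tuning subunit with a co-receptor such as Ir8a, Ir25a or Ir76b, in neurons that sense acids, amines, taste, temperature or humidity. In the adult fly most of the olfactory Or and Ir genes are transcribed in neurons of the antenna and the maxillary palp, both on the head, while other Ir genes are used in taste organs or by the larva. Muscle is not known as a site of olfaction.

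The study's title concerns Dpp released by muscle, a BMP-type ligand, and its part in feeding initiation and dopamine synthesis in the brain. The groups, of 3 libraries each, were dpp overexpression, dpp RNAi construct 1, dpp RNAi construct 2, control RNAi and control. The strain background is given as w1118 for every library. The driver of the transgenes, the target of the control RNAi, the age and sex of the flies and the number of animals per library are not given in the sources used here. The labels do not say that the replicates came from separate animals, so a p-value measures only the spread between these libraries.

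Each library held 25537295 to 56290808 gene counts under dpp overexpression, 11244899 to 18083156 under construct 1, 16719975 to 22400963 under construct 2, 31767317 to 33290702 for control RNAi and 36807879 to 53325394 for control. Levels are given as CPM, the counts of a gene scaled to the total gene counts of its library. dpp itself reached 69.4 ± 14.7 CPM (SD, n = 3 in every group) with dpp overexpression, 31.5 ± 1.51 CPM with construct 1, 30.5 ± 2.22 CPM with construct 2, 30.6 ± 2.85 CPM in control RNAi and 34.7 ± 1.67 CPM in control. The label RNAi was thus not seen as a lower dpp level, and the 2 constructs are named by label only. Library codes fall into number blocks: both constructs share a block, control RNAi has its own, and dpp overexpression shares a block with control. What a block stands for is not stated, and block and group cannot be told apart when either construct is set against control RNAi or control RNAi against control. Muscle markers (19 genes) summed to 10093 to 12276 CPM under dpp overexpression, 7829 to 12412 CPM under construct 1, 9609 to 13402 CPM under construct 2, 4324 to 4483 CPM for control RNAi and 9748 to 11023 CPM for control. Photoreceptor markers (17 genes of the eye) took 7.23 to 9.49% of gene counts in the 15 libraries, under every group label. These are bulk libraries, in which fewer cells of a type and less RNA per cell cannot be told apart.

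Chemoreceptor transcripts were rare. All 123 members together summed to 128 to 148 CPM under dpp overexpression, 118 to 161 CPM under construct 1, 179 to 238 CPM under construct 2, 239 to 313 CPM for control RNAi and 143 to 166 CPM for control. The number of members with at least 1 count was 96 to 108, 74 to 102, 96 to 100, 102 to 105 and 107 to 116 in the same order of groups. Where a member had 0 counts, the library could still hold up to 3 counts, which is 0.0533 to 0.267 CPM depending on depth. Such floors and intervals cover counting error only. Only 54 members had a count in all 15 libraries. Orco, Ir62a and Ir76a made up 36.0% of the summed mean level of all members and the 10 most abundant 68.3%.

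By mean CPM over the 15 libraries, a scale on which longer transcripts collect more counts, the 10 highest were Orco (30.3), Ir62a (20.8), Ir76a (13.9), Ir25a (11.3), Or63a (9.69), Ir75a (9.59), Or43b (8.30), Ir76b (8.18), Ir75b (7.02) and Ir68a (4.38). Per kilobase of coding sequence the highest were Orco with 20.8 CPM, Ir62a with 11.4, Or63a with 7.69, Ir76a with 7.19 and Or43b with 6.86. These means pool groups in which Orco differed widely. Per coding kilobase Orco stood at 4.65 CPM with dpp overexpression, 9.60 with construct 1, 29.9 with construct 2, 50.003 in control RNAi and 9.93 in control, and Ir62a at 13.3, 10.9, 9.56, 9.26 and 14.1 CPM in that order of groups, so that Ir62a was above Orco except in construct 2 and control RNAi. Several of these readings share sequence with other genes in the dm6 annotation. Ir62a lies wholly within Iml1 (CG12090 in the files) on the same strand, and CG12090 averaged 485 CPM with dpp overexpression, 251 CPM with construct 1, 229 CPM with construct 2, 251 CPM in control RNAi and 408 CPM in control. Or43b overlaps Cul1 (lin19) on the opposite strand over 41% of its exon length, Or71a lies within Plp (cp309), Or1a within CG3777, and all exons of Or10a overlap Gr10a. Antisense RNA genes cover all exons of Or45b and Or46a, 86% of the exon length of Or88a and 79% of that of Ir21a. The strand setting of the counting is not given in the sources used here, so the levels of these genes are uncertain. So are those of the near-identical copies Or19a and Or19b. The same caution holds for related genes (Or22a with Or22b, Or65a with Or65b and Or65c), whose likeness in sequence was not measured.

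Tests used edgeR's quasi-likelihood fit over all 15 libraries, with Benjamini-Hochberg adjusted p under 0.05 over the 10668 genes kept by its filter on low counts. Of the 123 members, 72 passed that filter (46 Or genes counting Orco, 26 Ir genes). The other 51 averaged at most 0.219 CPM and had 1 to 109 counts over all libraries. They include 12 of the 16 receptors listed as larval and 35 of the 45 Ir genes that are neither co-receptors nor in the antennal list. Passing depends on being high in at least 1 group, so shares among the 72 describe those genes and not the family.

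**Figure D1:**
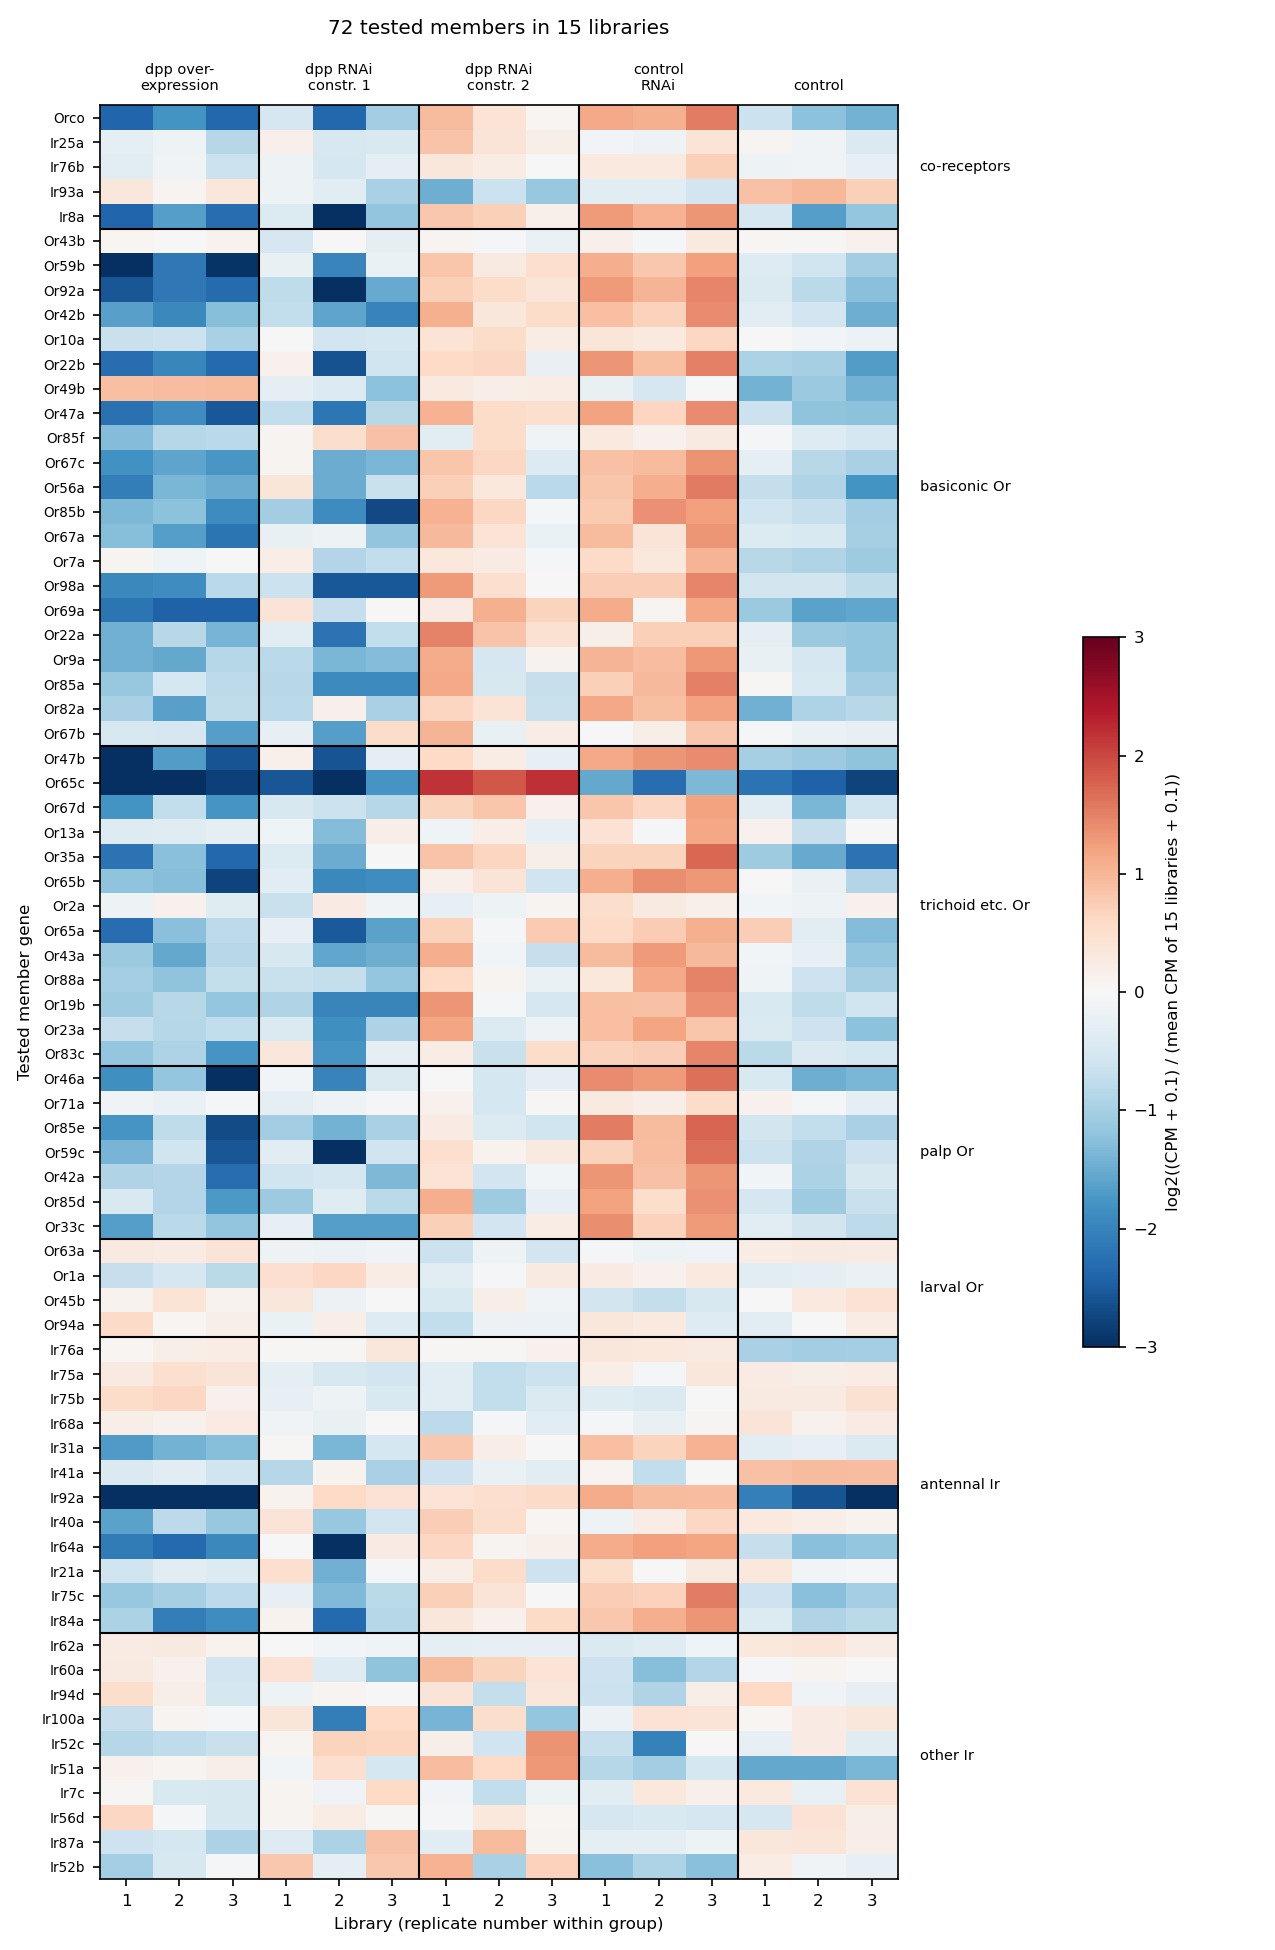
Each cell gives a tested member's level in a library (columns, 3 replicates in each of 5 groups) as log2 of (CPM + 0.1) over the member's mean CPM of all 15 libraries + 0.1; the 72 members are grouped by list. Most antennal and palp Or rows are red in control RNAi and blue in dpp overexpression, whereas Or65c is red in construct 2 and Or49b in dpp overexpression.

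Within groups the libraries differed in step across the Or genes, less so with dpp overexpression. There replicates 1, 2 and 3 were the lowest for 16, 10 and 16 of the 42 genes named next, and the highest for 7, 22 and 13. Over Orco and the 41 tested antennal or palp Or genes, replicate 2 of construct 1 was the lowest of its group for 29 of 42, replicate 1 of construct 2 the highest for 31, replicate 3 of control RNAi the highest for 33 and replicate 1 of control the highest for 35. The summed level of these 42 genes was 25.4 to 30.9 CPM with dpp overexpression, 25.3 to 52.0 CPM with construct 1, 76.9 to 123 CPM with construct 2, 128 to 178 CPM in control RNAi and 35.2 to 50.9 CPM in control. The group mean was highest in control RNAi for 37 of the 42 genes and lowest with dpp overexpression for 32. That order was not counted over all tested genes, so the 37 and 32 describe these 42 genes only. All 42 passed a filter that depends on being high in at least 1 group. The other 30 tested members had sums of 101 to 113, 91.2 to 105, 99.6 to 111, 108 to 131 and 105 to 111 CPM in the same order of groups.

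**Figure D2:**
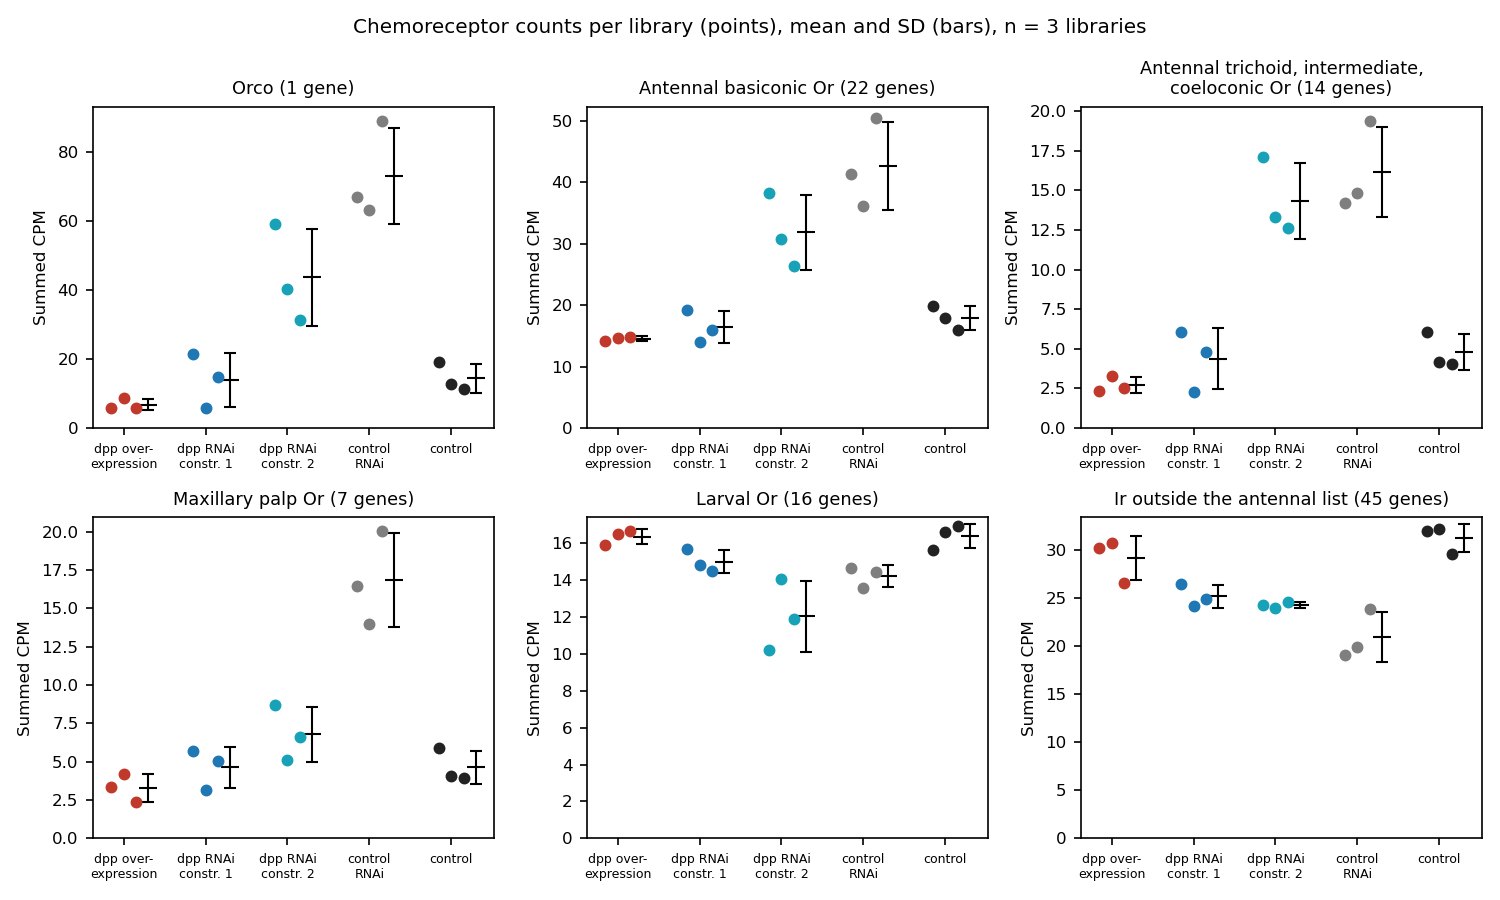
Points are summed CPM per library and bars the mean ± SD (n = 3) for Orco and 5 member lists, in 5 groups, with axes from 0. Orco and the antennal and palp Or lists were high in control RNAi and, except for the palp list, also in construct 2, while larval Or genes stayed between 10.2 and 16.9 CPM in all libraries.

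With dpp overexpression over control, which share a number block, 23 of 72 tested members (31.9%) fell and 4 (5.56%) rose. Among all tested genes 16.2% fell and 13.4% rose, 29.6% in either direction. The median log2 fold change was -0.76 over the members and -0.01 over all genes. Of the 27 calls, 11 held in all 12 alternative settings that kept the same comparison: the rises of Or49b, Or7a, Ir76a and Ir51a and the falls of Or59b, Or92a, Or10a, Ir31a, Ir40a, Ir41a and Ir93a. The count was 15 without replicate 1 of dpp overexpression, 11 without replicate 1 of control and 17 without replicate 2 of control. The 16 less steady calls were all falls, among them Or42b, Or47a, Or67a, Or67c, Or69a, Ir64a and Ir8a.

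With construct 1 over control RNAi, 41 members (56.9%) fell and 2 (2.78%) rose, against 12.6% and 13.1% of all tested genes (25.7% in either direction). The median log2 fold change was -1.35 for members and -0.00 for all genes. Of these calls 31, all falls, held in all 12 settings, and leaving out a library gave 36 to 42 calls. Without the filter on low counts 42 of the 123 members fell and 2 rose. Passing the filter depends on being high in at least 1 group, so the 56.9% may in part follow from the filter. Set against the libraries titled control, the same construct 1 libraries gave 7 members higher (9.72%) and 6 lower (8.33%), where all genes gave 12.8% and 11.7% (24.6% in either direction). The falls thus depended on which control group served as the baseline. In construct 1 over control RNAi, 16 of 19 muscle markers (median 1.20) and 5 of 5 larval cuticle markers were higher, while 4 of 10 neuron markers (median -0.31) and 6 of 17 photoreceptor markers (median -0.16) were lower. Their part in the result was not tested.

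With construct 2 over control RNAi, 16 members (22.2%) fell and 5 (6.94%) rose, against 20.3% and 21.0% of all tested genes (41.3% in either direction), so the share that fell was near that of all genes. The median log2 fold change was -0.52 for members and 0.01 for all genes. The count of 21 calls was 11 without replicate 3 of construct 2. Of the 21, 7 held in all 12 settings: Or65c, Ir51a, Ir52b and Ir60a were higher and Or46a, Or85e and Ir75a lower. Set against control, construct 2 gave 35 members higher (48.6%) and 7 lower (9.72%), with 18.3% and 17.9% among all genes (36.2% in either direction). In construct 2 over control RNAi, 16 of 19 muscle markers (median 1.17) and 4 of 5 larval cuticle markers were higher, while 7 of 10 neuron markers (median -0.38) and 13 of 17 photoreceptor markers (median -0.31) were lower, and their part was not tested. Both constructs were compared with the same control RNAi libraries, so their fold changes share that baseline.

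Construct 1 set directly against construct 2, within a number block, gave 13 members lower (18.1%) and 0 higher, against 6.36% and 5.67% of all genes (12.0% in either direction). At an unadjusted p under 0.05, edgeR placed 4 members higher, and DESeq2 called 0. The 13 were Orco, Ir8a, Ir76b, Or10a, Or19b, Or22a, Or42b, Or47a, Or59b, Or65c, Or85b, Or92a and Or98a. Or42b, Or47a, Or65c, Or85b and Or92a kept their call in all 12 settings. The count was 6 without replicate 2 of construct 1, 5 without replicate 3 of construct 1 and 5 without replicate 1 of construct 2.

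Control RNAi set against control, a comparison in which neither label names a change of dpp, gave the highest count of the 5 comparisons: 47 (65.3%) were higher and 8 (11.1%) lower, against 20.9% and 24.3% of all tested genes (45.2% in either direction). The median log2 fold change was 1.81 for members and -0.04 for all genes. Of the 55 calls, 48 held in all 12 settings, and leaving out a library gave 48 to 53 calls. Without the filter on low counts 49 of the 123 members were higher and 7 lower. Passing the filter depends on being high in at least 1 group, so the 65.3% may in part follow from the filter. In the same comparison 16 of 19 muscle markers were lower (median log2 fold change -1.04) and 10 of 10 neuron markers higher (median 0.77). Photoreceptor markers were higher for 7 of 17 and lower for 1 of 17. The part of these markers in the result was not tested.

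**Figure D3:**
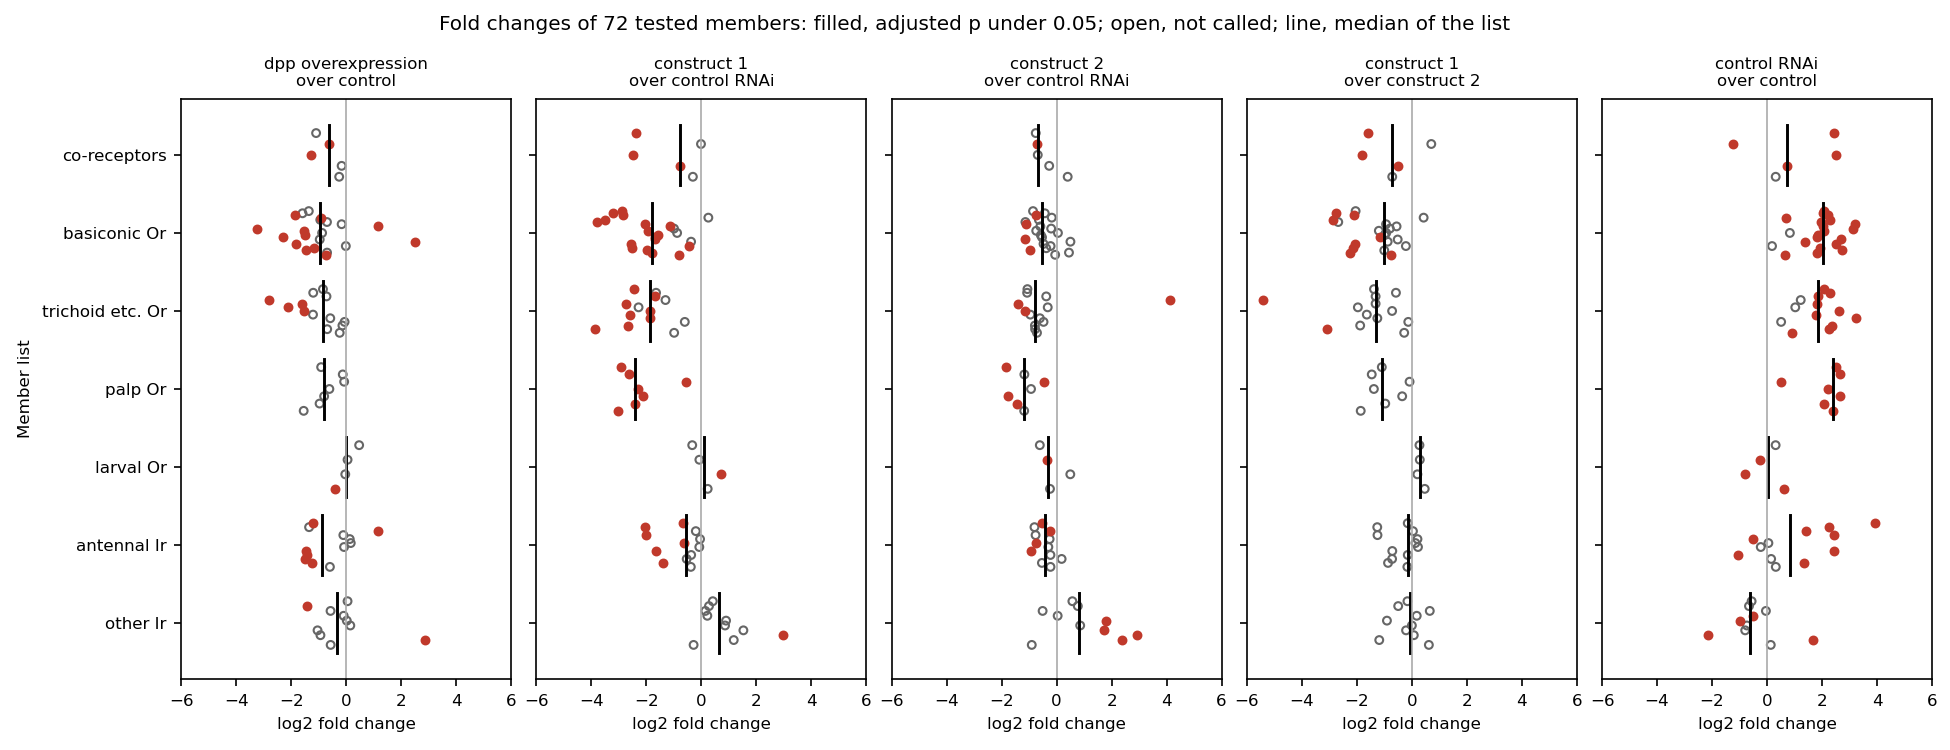
Points are log2 fold changes of the 72 tested members in 5 comparisons (panels), by list (rows); filled points passed an adjusted p of 0.05, open points did not, and black lines mark list medians. The medians of the basiconic, trichoid and palp Or lists lie left of 0 with construct 1 (-1.81, -1.86 and -2.41) and right of 0 for control RNAi over control (2.02, 1.87 and 2.39).

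Orco, without which tuning Or proteins do not reach the dendrite, stood at 5.76, 8.71 and 5.87 CPM with dpp overexpression, at 21.3, 5.88 and 14.8 CPM with construct 1, at 59.0, 40.4 and 31.4 CPM with construct 2, at 66.7, 63.2 and 88.7 CPM in control RNAi and at 19.3, 12.8 and 11.3 CPM in control. All control RNAi libraries exceeded all others, and each dpp overexpression library lay below each control library. Relative to control RNAi, Orco fell with construct 1 (log2 fold change -2.36 ± 0.39 SE, adjusted p = 0.00141) and gave -0.76 ± 0.35 with construct 2 (adjusted p = 0.106). Orco in control RNAi exceeded control by 2.42 ± 0.36 (adjusted p = 0.000316), and dpp overexpression gave -1.09 ± 0.39 over control, which missed the threshold (adjusted p = 0.0572). Construct 1 was 1.61 ± 0.40 lower than construct 2 on the log2 scale (adjusted p = 0.0267). That last call was lost without replicate 2 of construct 1 (adjusted p = 0.0589), replicate 3 of construct 1 (0.0796) or replicate 1 of construct 2 (0.102), and when the fit held only these 6 libraries. Against control, construct 1 gave 0.06 ± 0.40 (adjusted p = 0.946) and construct 2 gave 1.66 ± 0.37 (adjusted p = 0.0051).

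Ir8a, the co-receptor of acid-sensing Irs, followed the same order at a lower level. It averaged 0.245 ± 0.102 CPM with dpp overexpression, 0.536 ± 0.458 CPM with construct 1, 2.08 ± 0.495 CPM with construct 2, 3.28 ± 0.334 CPM in control RNAi and 0.608 ± 0.284 CPM in control. It fell with construct 1 relative to control RNAi (-2.50 ± 0.43, adjusted p = 0.000673) and was higher in control RNAi than in control (2.51 ± 0.33, adjusted p = 2.81e-05). Its fall with dpp overexpression (-1.28 ± 0.46, adjusted p = 0.0495) was lost in 9 of the 12 settings, and against control construct 1 gave 0.01 (adjusted p = 0.997).

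Ir25a, the co-receptor used most broadly, was not called in any of the 5 comparisons. Against control, which is outside those 5 for the constructs, Ir25a was called higher with construct 2, and construct 1 gave 0.0066 (adjusted p = 0.992). Its means were 8.55 ± 2.11, 9.68 ± 2.54, 16.1 ± 3.90, 12.03 ± 2.74 and 10.3 ± 1.82 CPM with dpp overexpression, with construct 1, with construct 2, in control RNAi and in control, with overlap between control RNAi and each other group. Ir76b, which serves amine and taste receptors, moved less than Orco: it fell with construct 1 by 0.78 on the log2 scale (SE 0.15, adjusted p = 0.00135) and was 0.71 ± 0.13 higher in control RNAi than in control (adjusted p = 0.000458). Ir93a, which works with Ir25a in temperature and humidity sensing, ran the other way between the controls. It stood at 1.90, 1.59 and 1.92 CPM with dpp overexpression, at 1.33, 1.18 and 0.711 CPM with construct 1, at 0.478, 0.907 and 0.625 CPM with construct 2, at 1.18, 1.16 and 0.961 CPM in control RNAi and at 2.79, 3.06 and 2.50 CPM in control. The control libraries were the highest of all 15. Ir93a was lower in control RNAi than in control (-1.25 ± 0.18, adjusted p = 4.82e-05) and with dpp overexpression than in control (-0.64 ± 0.16, adjusted p = 0.00648).

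The antennal basiconic list holds receptors for many food odours, and 21 of its 22 members were tested. With dpp overexpression 10 fell and 2 rose (47.6% and 9.5%, against 16.2% and 13.4% of all tested genes, median log2 fold change -0.96). The 10 falls became 3 without replicate 1 of control, 6 without replicate 2 of control, 5 without replicate 1 of dpp overexpression and 4 without replicate 2 of dpp overexpression. With construct 1 over control RNAi 17 fell (81.0% of the list, against 12.6% of all tested genes, median -1.81). With construct 2 over control RNAi 4 fell (19.0% of the list, against 20.3% of all tested genes, median -0.53). Those 4 falls became 2 without replicate 1 or 2 of control RNAi, 1 without replicate 2 of construct 2, and 0 without replicate 3 of either group. In control RNAi over control 19 were higher (90.5% of the list, against 20.9% of all tested genes, median 2.02). Or9a was among the genes that fell with construct 1 (-2.90, adjusted p = 0.00186) and were higher in control RNAi than in control (2.09, adjusted p = 0.000266). Or85f was called lower with dpp overexpression over control (-0.92, adjusted p = 0.0333) and higher in control RNAi over control (0.70, adjusted p = 0.0424), calls lost in 6 and 9 of 12 settings. Or59b, a receptor for acetate esters, stood at 0.231, 0.625 and 0.313 CPM with dpp overexpression and at 2.34, 2.01 and 1.44 CPM in control. The groups did not overlap, and Or59b fell by 2.30 on the log2 scale (SE 0.39, adjusted p = 0.000431). Construct 1 gave 2.65, 0.706 and 2.67 CPM for Or59b, construct 2 gave 5.56, 3.74 and 4.42 CPM and control RNAi gave 6.72, 5.51 and 7.42 CPM.

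Or92a, the receptor for diacetyl, had 0.249, 0.363 and 0.313 CPM with dpp overexpression, 1.11, 0.157 and 0.623 CPM with construct 1, 3.29, 2.89 and 2.54 CPM with construct 2, 4.84, 4.09 and 5.62 CPM in control RNAi and 1.43, 1.06 and 0.761 CPM in control. Construct 2 lay between construct 1 and control RNAi without overlap on either side. Or92a fell with dpp overexpression over control (-1.85 ± 0.34, adjusted p = 0.000654), with construct 1 over control RNAi (-2.85 ± 0.33, adjusted p = 4.63e-05) and with construct 1 over construct 2 (-2.09 ± 0.37, adjusted p = 0.0018). Its fall with construct 2 over control RNAi (-0.76 ± 0.24, adjusted p = 0.0201) was lost without replicate 2 or 3 of construct 2 or replicate 3 of control RNAi. Or42b and Or47a, receptors for fruit esters, also differed between the constructs: Or42b averaged 0.478 ± 0.264 CPM with construct 1 and 2.27 ± 0.644 CPM with construct 2, and Or47a 0.274 ± 0.170 CPM with construct 1 and 1.22 ± 0.292 CPM with construct 2.

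Some basiconic receptors departed from the rest of their list. Or43b averaged 8.62 ± 0.285, 6.99 ± 1.31, 7.99 ± 0.802, 9.20 ± 1.05 and 8.68 ± 0.366 CPM in dpp overexpression, construct 1, construct 2, control RNAi and control, and was called only as lower with construct 1 over control RNAi (-0.43 ± 0.12, adjusted p = 0.0173), a call lost without replicate 1 or 3 of construct 1 or replicate 3 of control RNAi and when only these 6 libraries were fitted. Or43b overlaps Cul1, as given above. Or7a, the receptor for a leaf aldehyde, was higher with dpp overexpression (0.508 ± 0.0436 CPM) than in control (0.221 ± 0.0276 CPM; log2 fold change 1.17 ± 0.30, adjusted p = 0.00808). Or69a, tuned to terpenes and a fly pheromone, moved in the direction of its list, but on few counts. It had 1, 0 and 0 counts in the dpp overexpression libraries and 8, 4 and 3 counts in control. The ratio of its summed counts, scaled to the gene totals, was 0.0724 (95% exact interval 0.00172 to 0.471), and its call as lower (adjusted p = 0.023) was lost without replicate 2 of dpp overexpression or replicate 1 of control.

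The largest log2 fold changes for construct 1 over control RNAi were those of Or19b, Or85a and Or85b, all falls on few counts. Or85b had 4, 1 and 0 counts with construct 1, 21, 16 and 12 with construct 2 and 34, 51 and 48 in control RNAi, and fell by 3.50 on the log2 scale relative to control RNAi (SE 0.53, adjusted p = 0.000253). Or19b and Or85a had 2 counts each over the 3 construct 1 libraries, against 72 and 69 in control RNAi, which gave scaled ratios of 0.0648 (95% exact interval 0.00770 to 0.243) and 0.0676 (0.00802 to 0.254). For control RNAi over control the largest were Ir92a, described with the amine receptors, Or35a and Or82a. Or35a, the Or of coeloconic sensilla, averaged 1.45 ± 0.721 CPM in control RNAi and 0.150 ± 0.0947 CPM in control (3.25 ± 0.46, adjusted p = 4.95e-05). Or82a, the geranyl acetate receptor, averaged 0.692 ± 0.0822 CPM in control RNAi and 0.0804 ± 0.0378 CPM in control (3.19 ± 0.45, adjusted p = 4.24e-05). In each of these pairs the libraries of the 2 groups did not overlap.

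Trichoid, intermediate and coeloconic Or genes include the receptors for fly pheromones, and 13 of 14 were tested. With dpp overexpression 4 fell (30.8% of the list, against 16.2% of all tested genes, median -0.84). That count became 0 without replicate 1 or replicate 2 of control and 1 without replicate 1 of dpp overexpression. With construct 1 over control RNAi 8 fell (61.5%, against 12.6%, median -1.86). In control RNAi over control 10 were higher (76.9%, against 20.9%, median 1.87). With construct 2 over control RNAi 2 fell (15.4% of the list, against 20.3% of all tested genes) and 1 rose (7.7%, against 21.0%, median -0.78). Those 2 falls became 6 without replicate 1 and 0 without replicate 3 of construct 2. Or23a, Or43a and Or88a, the last a receptor for fly odours, fell with construct 1 over control RNAi by 2.67, 2.59 and 2.44 on the log2 scale and were higher in control RNAi than in control by 2.35, 1.80 and 2.07. Or83c, the farnesol receptor, and Or13a were called, of the 5 comparisons, only in control RNAi over control, at 2.29 and 0.91, and the call of Or13a was lost in 3 of 12 settings. Or67d, a receptor for the male pheromone cVA, averaged 0.350 ± 0.203 CPM with dpp overexpression, 0.627 ± 0.0927 CPM with construct 1, 1.61 ± 0.399 CPM with construct 2, 2.04 ± 0.437 CPM in control RNAi and 0.600 ± 0.236 CPM in control. It fell with construct 1 over control RNAi (-1.69 ± 0.39, adjusted p = 0.00479), while over control construct 1 gave 0.17 (adjusted p = 0.825). Or47b, which detects odours of other flies and takes part in male courtship, had 0.0888, 0.383 and 0.157 CPM with dpp overexpression, 1.60, 0.157 and 1.16 CPM with construct 1, 2.21, 1.70 and 1.21 CPM with construct 2, 3.27, 3.75 and 3.995 CPM in control RNAi and 0.675, 0.627 and 0.571 CPM in control. Its control RNAi libraries lay above all others, and the log2 fold change over control was 2.63 ± 0.35 (adjusted p = 3.11e-05).

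Or65c was the exception of that list. Its counts were 0, 0 and 2 with dpp overexpression, 2, 0 and 3 with construct 1, 92, 78 and 125 with construct 2, 11, 5 and 13 in control RNAi and 9, 7 and 3 in control. As levels, construct 2 gave 5.50, 4.42 and 5.58 CPM and no other library exceeded 0.390 CPM. Or65c rose with construct 2 over control RNAi (log2 fold change 4.11 ± 0.33, adjusted p = 4.83e-07) and was lower with construct 1 than with construct 2 (-5.41 ± 0.48, adjusted p = 3.46e-06). Both calls held in all 12 settings. The neighbouring paralogs on arm 3L did not share the rise: with construct 2 over control RNAi, Or65a gave -0.32 ± 0.56 (adjusted p = 0.677) and Or65b fell (-1.41 ± 0.40, adjusted p = 0.0108; lost without replicate 3 of construct 2). On its other side CG13300 gave -0.17 and was not called. With dpp overexpression Or65c was called lower than control on 2 against 19 counts, a ratio of 0.114 (95% exact interval 0.0129 to 0.474), and that call was lost without replicate 1 or 2 of either group and when only these 6 libraries were fitted.

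All 7 maxillary palp Or genes were tested. With construct 1 over control RNAi 7 fell (median -2.41), where 12.6% of all tested genes fell. In control RNAi over control 7 were higher (median 2.39), where 20.9% of all tested genes were higher. With construct 2 over control RNAi 4 fell (57.1%, against 20.3%, median -1.18), or 2 without replicate 2 of construct 2. Or59c fell with construct 1 by 2.31 on the log2 scale, and Or33c had 3 counts in construct 1 against 59 in control RNAi, a scaled ratio of 0.119 (95% exact interval 0.0238 to 0.364). With dpp overexpression over control edgeR called 0 of the 7 (median -0.80), with 0 at an unadjusted p under 0.05 and 0 called by DESeq2. Among all tested genes 29.6% were called in that comparison, in either direction. Or46a, a receptor for phenols, stood at 0.711, 1.21 and 0.196 CPM with dpp overexpression, at 2.65, 0.628 and 2.05 CPM with construct 1, at 2.81, 1.93 and 2.28 CPM with construct 2, at 7.69, 6.93 and 9.04 CPM in control RNAi and at 2.01, 0.950 and 1.03 CPM in control. Control RNAi stood clear of all other groups, and the constructs overlapped each other. An antisense RNA gene covers all exons of Or46a in the annotation, so its level is uncertain. Or46a fell with construct 1 (-2.12 ± 0.42, adjusted p = 0.00284) and with construct 2 (-1.77 ± 0.39, adjusted p = 0.00297) relative to control RNAi. Against control the values were 0.52 (adjusted p = 0.478) and 0.87 (adjusted p = 0.14). Or85e, another palp receptor, averaged 0.207 ± 0.196, 0.308 ± 0.0637, 0.672 ± 0.250, 2.34 ± 0.650 and 0.432 ± 0.0767 CPM in the same order of groups and fell by 2.93 and 1.84 on the log2 scale with construct 1 and construct 2. In construct 1 over construct 2, edgeR called 0 palp genes, with 0 at an unadjusted p under 0.05 and 0 called by DESeq2. Among all tested genes 12.0% were called there, and for 7 genes a count of 0 is not far from that share.

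Only 4 of the 16 receptors listed as larval passed the filter: Or63a, Or1a, Or45b and Or94a. Or63a had 11.996 ± 0.667 CPM with dpp overexpression, 8.76 ± 0.216 CPM with construct 1, 7.10 ± 1.37 CPM with construct 2, 9.06 ± 0.303 CPM in control RNAi and 11.5 ± 0.210 CPM in control. It fell with construct 2 over control RNAi (-0.36 ± 0.10, adjusted p = 0.00958), a call lost without replicate 1 or 3 of construct 2. Or45b, whose exons are fully covered by an antisense RNA gene in the annotation, was lower in control RNAi (1.04 ± 0.0855 CPM) than in control (1.94 ± 0.298 CPM; -0.79 ± 0.18, adjusted p = 0.00263). Or1a, within CG3777, was higher in control RNAi (3.30 ± 0.192 CPM) than in control (2.33 ± 0.116 CPM; 0.60 ± 0.14, adjusted p = 0.00238). Its fall with dpp overexpression over control (-0.41 ± 0.14, adjusted p = 0.0419) was lost in 8 of the 12 settings, among them without replicate 1 or 3 of dpp overexpression or any 1 control library.

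Of 13 tuning Irs listed for the antenna, 12 were tested, and they split. Ir64a and Ir84a, for acids and for the courtship-promoting phenylacetic odours, and Ir31a and Ir75c followed Orco: each fell with construct 1 over control RNAi, and each was higher in control RNAi than in control, by 1.34 (Ir31a) to 2.45 (Ir75c) on the log2 scale. Against control, construct 1 gave 0.80 for Ir64a, 0.19 for Ir84a, -0.06 for Ir31a and 0.44 for Ir75c, and none was called. Ir31a had 0.728, 0.907 and 1.02 CPM with dpp overexpression, 2.65, 0.941 and 1.78 CPM with construct 1, 4.61, 3.00 and 2.63 CPM with construct 2, 4.97, 4.16 and 5.44 CPM in control RNAi and 2.06, 2.17 and 1.90 CPM in control. Dpp overexpression lay below control without overlap (-1.25 ± 0.25, adjusted p = 0.00135). Ir40a, part of the dry-air receptor, also fell with dpp overexpression, to 0.626 ± 0.200 CPM against 1.75 ± 0.123 CPM in control (-1.50 ± 0.31, adjusted p = 0.00154), but gave 0.15 ± 0.27 for control RNAi over control (adjusted p = 0.679). Ir75b was called lower in control RNAi than in control, at -0.65 to -0.41 on the log2 scale in the 12 settings, all of which kept the call. Ir21a, the cool receptor, and Ir68a, the moist-air receptor, were called in none of the 5 comparisons.

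Ir75a, which detects acetic acid, had a pattern unlike that of Orco. It stood at 11.5, 13.4 and 12.6 CPM with dpp overexpression, at 7.91, 6.90 and 6.40 CPM with construct 1, at 7.60, 5.72 and 6.12 CPM with construct 2, at 11.0, 9.16 and 12.2 CPM in control RNAi and at 11.3, 10.8 and 11.2 CPM in control. Both constructs lay below every other group without overlap. Ir75a fell with construct 1 (-0.62 ± 0.12, adjusted p = 0.0017) and construct 2 (-0.75 ± 0.12, adjusted p = 0.000161) over control RNAi, and against control the values were -0.57 (adjusted p = 0.00287) and -0.70 (adjusted p = 0.000296). These 4 comparisons share libraries, and the constructs differ from both controls in their number block. Control RNAi gave 0.05 ± 0.11 over control (adjusted p = 0.724) for Ir75a.

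Ir76a, Ir92a and Ir41a sense amines. Ir76a stood at 14.6, 15.8 and 16.2 CPM with dpp overexpression, 14.2, 14.2 and 17.6 CPM with construct 1, 14.3, 14.3 and 15.3 CPM with construct 2, 17.7, 17.3 and 16.9 CPM in control RNAi and only 7.05, 6.67 and 6.82 CPM in control. The control libraries were lower than all 12 others. Ir76a rose by 1.18 ± 0.08 with dpp overexpression (adjusted p = 1.12e-08) and was 1.43 ± 0.08 higher in control RNAi (adjusted p = 2.31e-09) relative to control, while construct 1 gave -0.20 ± 0.08 over control RNAi (adjusted p = 0.0722).

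Ir92a, needed for attraction to ammonia, was at 0.124, 0.141 and 0.117 CPM with dpp overexpression, 2.27, 3.22 and 2.85 CPM with construct 1, 2.81, 3.00 and 3.17 CPM with construct 2, 4.60, 4.16 and 4.06 CPM in control RNAi and 0.431, 0.266 and 0.163 CPM in control. Dpp overexpression and control, which share a number block, lay below all 9 other libraries. Control RNAi exceeded control by 3.91 ± 0.21 (adjusted p = 2.2e-09). The fall with dpp overexpression over control (-1.19 ± 0.35, adjusted p = 0.0179) was lost without replicate 1 of dpp overexpression or replicate 1 of control and when only these 6 libraries were fitted. Ir41a, a receptor for polyamines, had 1.60, 1.71 and 1.41 CPM with dpp overexpression, 1.16, 2.35 and 1.07 CPM with construct 1, 1.38, 1.87 and 1.70 CPM with construct 2, 2.30, 1.26 and 2.19 CPM in control RNAi and 4.13, 4.33 and 4.24 CPM in control. Control was the highest group without overlap, and dpp overexpression (-1.41 ± 0.20, adjusted p = 5.23e-05) and control RNAi (-1.04 ± 0.20, adjusted p = 0.000596) were both lower than it.

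**Figure D4:**
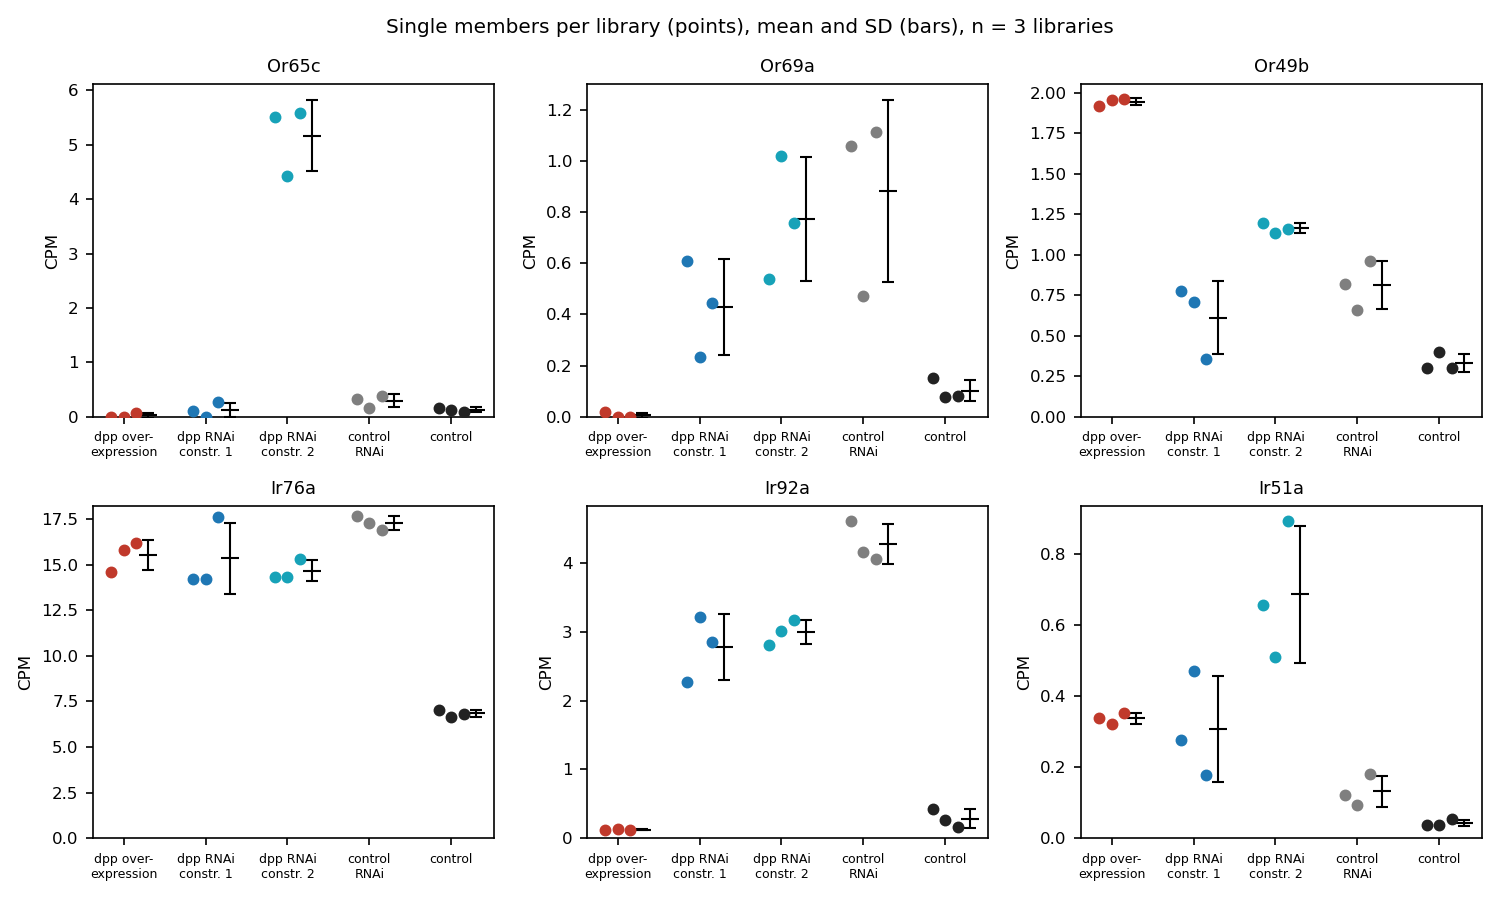
Points are CPM per library for 6 members chosen after their values were seen, in 5 groups, with the mean ± SD (n = 3) beside them and axes from 0. Or65c reached 4.42 CPM or more only in construct 2, Ir76a was at 6.67 to 7.05 CPM in control against 14.2 CPM or more elsewhere, and Ir92a was under 0.5 CPM in dpp overexpression and control.

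Ir genes outside the co-receptor and antennal lists are mainly gustatory or larval, and 10 of 45 were tested. With construct 1 over control RNAi 1 of these 10 rose (median 0.64), where 13.1% of all tested genes rose. Construct 2 over control RNAi gave 4 that rose (median 0.82), where 21.0% of all tested genes rose. Control RNAi over control gave 3 lower and 1 higher (median -0.61), against 24.3% and 20.9% of all tested genes. With construct 2, Ir52c was called higher (1.74, adjusted p = 0.0481; lost in 7 of 12 settings), and Ir87a was called lower with dpp overexpression over control (-1.41, adjusted p = 0.0194; lost without replicate 1 of dpp overexpression or replicate 1 or 2 of control). Ir52b, expressed in taste neurons, averaged 0.123 ± 0.0713 CPM with dpp overexpression, 0.348 ± 0.165 CPM with construct 1, 0.332 ± 0.248 CPM with construct 2, 0.0411 ± 0.0189 CPM in control RNAi and 0.205 ± 0.0515 CPM in control. It rose with construct 1 (2.99 ± 0.82, adjusted p = 0.014; lost without replicate 1 of construct 1) and with construct 2 (2.91 ± 0.78, adjusted p = 0.00755). Against control the values were 0.82 (adjusted p = 0.328) and 0.75 (adjusted p = 0.293). Ir60a rose with construct 2, to 1.28 ± 0.265 CPM against 0.356 ± 0.101 CPM in control RNAi (1.80 ± 0.35, adjusted p = 0.000792).

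Ir62a, the second most abundant member, was lower in control RNAi (16.8 ± 1.94 CPM) than in control (25.7 ± 1.14 CPM; -0.51 ± 0.07, adjusted p = 4e-05). Its host Iml1 was lower in the same comparison by 0.61 on the log2 scale (adjusted p = 1.8e-07), and the share of Ir62a counts that comes from Iml1 was not tested. The pseudogene Ir51a had 19, 16 and 9 counts with dpp overexpression, 5, 6 and 2 with construct 1, 11, 9 and 20 with construct 2, 4, 3 and 6 in control RNAi and 2, 2 and 2 in control. It rose with dpp overexpression over control (2.87 ± 0.43, adjusted p = 9.88e-05) and with construct 2 over control RNAi (2.36 ± 0.37, adjusted p = 0.000156). In CPM its dpp overexpression libraries lay between 0.322 and 0.352 and its control libraries between 0.0375 and 0.0543, without overlap.

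Or49b, a receptor for methylphenol whose gene lies on arm 2R, rose with dpp overexpression, as did 5 of the 7 tested genes among the 4 on each side. Among all tested genes 13.4% rose. It had 1.92, 1.95 and 1.96 CPM with dpp overexpression, 0.774, 0.706 and 0.356 CPM with construct 1, 1.20, 1.13 and 1.16 CPM with construct 2, 0.818, 0.661 and 0.961 CPM in control RNAi and 0.300, 0.399 and 0.299 CPM in control. Dpp overexpression exceeded all other libraries, with a log2 fold change over control of 2.52 ± 0.20 (adjusted p = 1.07e-07). In the gene order of dm6 the neighbour before it, Cyp9h1, rose by 2.01, and the 3 genes after it, CG17575, antr and CG30486, rose by 2.15, 1.64 and 1.62. sca, 3 genes before Or49b, rose by 0.22. With construct 2 over control RNAi, antr and CG30486 rose by 2.43 and 2.90, while Or49b gave 0.50 ± 0.22 and was not called (adjusted p = 0.0795). In control RNAi over control these 2 neighbours were lower (-1.54 and -1.87), whereas Or49b was called higher, by 1.23 to 1.54 in the 12 settings. In construct 1 over construct 2 they were lower by 4.06 and 4.55, and Or49b was not called. Of the 7 tested genes among the 4 on each side of Ir76a, only SREBP was called with dpp overexpression (0.34). Neighbours were examined for 9 members chosen after their values were seen.

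**Figure D5:**
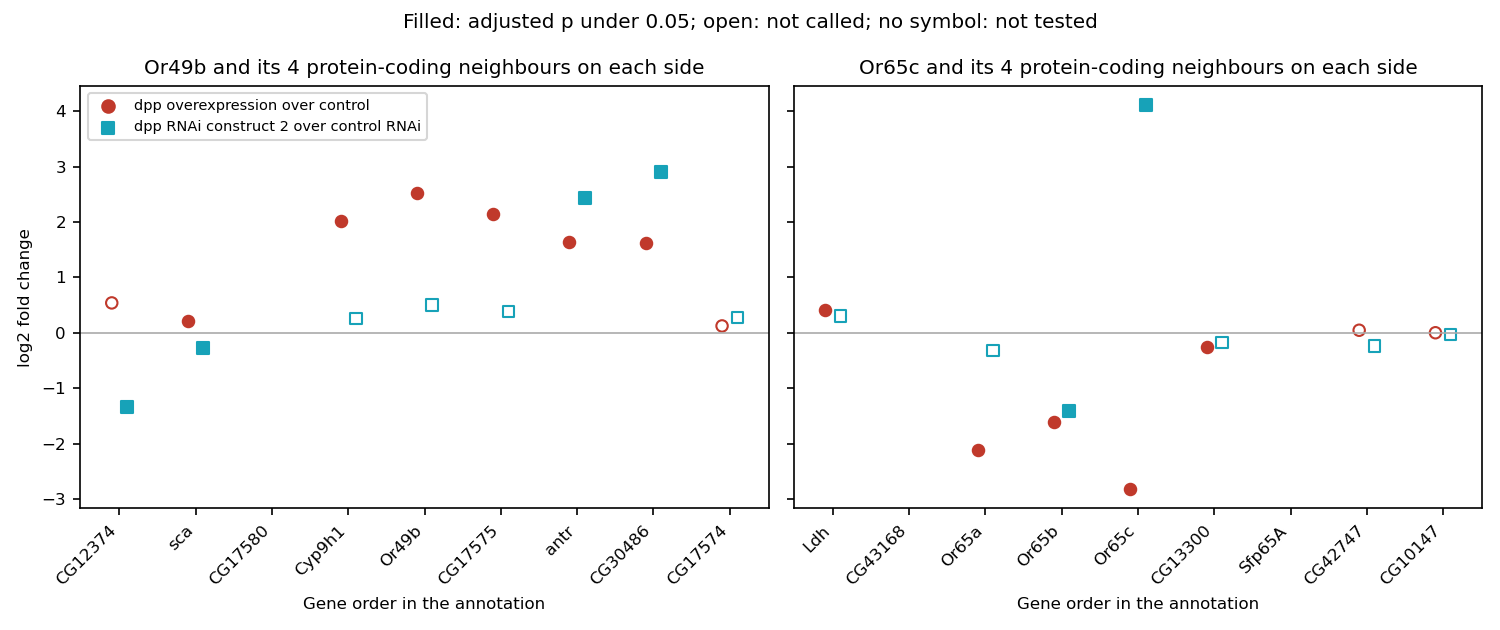
Log2 fold changes of Or49b (left) and Or65c (right) with the 4 protein-coding neighbours on each side in the dm6 gene order, for dpp overexpression over control (circles) and dpp RNAi construct 2 over control RNAi (squares); filled symbols passed an adjusted p of 0.05. Around Or49b, 4 neighbours rose by 1.62 to 2.15 with dpp overexpression and sca by 0.22, while the 4.11 of Or65c with construct 2 was not shared by a neighbour.

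Genes that work beside the receptors were taken from a list of 31 partner genes (odorant-binding proteins, transporters, ciliary and transcription factors of olfactory neurons), of which 30 were tested. With dpp overexpression over control 17 were lower (56.7%, against 16.2% of all tested genes, median -0.57), a count that became 7 without replicate 1 of dpp overexpression or replicate 1 of control. In construct 1 over control RNAi 18 were lower (60.0%, against 12.6%, median -0.74). With construct 2 over control RNAi 8 were lower (26.7%, near the 20.3% of all genes) and 2 higher (median -0.38), with 4 lower without replicate 3 of construct 2 and 5 lower without replicate 1 of control RNAi. In construct 1 over construct 2 8 were lower (26.7%, against 6.36%, median -0.56), or 5 without replicate 3 of construct 1, replicate 1 of construct 2 or replicate 2 of construct 2. In control RNAi over control 18 were higher and 1 lower (60.0% and 3.3%, against 20.9% and 24.3% of all tested genes, median 0.79). lush, the binding protein of pheromone-sensing trichoid sensilla, averaged 4.39 ± 1.02 CPM with dpp overexpression, 12.6 ± 5.36 CPM with construct 1, 27.5 ± 8.08 CPM with construct 2, 43.8 ± 2.00 CPM in control RNAi and 11.2 ± 2.56 CPM in control. Os-E, another binding protein of the antenna, averaged 17.3 ± 3.39, 74.8 ± 49.8, 161 ± 49.6, 278 ± 16.5 and 51.3 ± 15.0 CPM in that order of groups. Snmp1, the membrane protein for pheromone detection, fell with construct 1 over control RNAi (-1.22, adjusted p = 0.0045), and with dpp overexpression over control it gave -0.68 (adjusted p = 0.056).

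Genes that specify olfactory neurons or pattern their organs were also read. acj6, a transcription factor that selects receptor genes, was at 11.4 ± 1.08, 10.5 ± 1.49, 9.96 ± 0.804, 14.6 ± 1.03 and 11.5 ± 1.27 CPM in dpp overexpression, construct 1, construct 2, control RNAi and control, and pdm3, another, was at 94.95 ± 6.27, 105 ± 3.41, 99.2 ± 2.88, 104 ± 6.20 and 104 ± 1.31 CPM and was called in none of the 5 comparisons. Head appendage patterning genes (10, such as Dll and hth) summed to 416 to 451 CPM with dpp overexpression, 509 to 518 CPM with construct 1, 463 to 495 CPM with construct 2, 623 to 656 CPM in control RNAi and 468 to 475 CPM in control. Of these 10 genes, 2 fell with dpp overexpression, where 16.2% of all tested genes fell. With construct 1 over control RNAi 4 fell (down to -0.81), where 12.6% of all genes fell. With construct 2 over control RNAi 3 fell and 1 rose, against 20.3% and 21.0% of all genes. In control RNAi over control 5 were higher (up to 1.04), where 20.9% of all genes were higher. Among 7 tested Hox genes, which mark position along the body, 3 were lower (Ubx, Antp and Scr) and 1 higher (pb) in control RNAi than in control. Among all tested genes 24.3% were lower and 20.9% higher there. Over control RNAi, 4 were higher with construct 1 (highest log2 fold change 5.52), against 13.1% of all genes. With construct 2 over control RNAi 4 were higher and 1 lower (highest 4.99), against 21.0% and 20.3% of all genes. Over control, 1 was higher with construct 1 (highest 7.39) and 1 with construct 2 (highest 6.86), against 12.8% and 18.3% of all genes. With dpp overexpression over control 3 were lower, against 16.2% of all genes, and the highest value, 2.24, was not called. The thoracic Hox gene Ubx, a mark of tissue behind the head, had 0.963 ± 0.202 CPM with dpp overexpression, 3.05 ± 2.36 CPM with construct 1, 4.73 ± 1.98 CPM with construct 2, 0.245 ± 0.00617 CPM in control RNAi and 2.62 ± 0.198 CPM in control. Larval cuticle genes (5) summed to 0.480 to 0.645 CPM with dpp overexpression, 164 to 197 CPM with construct 1, 75.5 to 136 CPM with construct 2, 0.315 to 0.636 CPM in control RNAi and 0.281 to 0.608 CPM in control. The part of any of these genes, or of the body regions and stages they mark, in the receptor differences was not tested.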

How the data were processed

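Deposited values were whole-number read counts per gene symbol for each of 15 libraries, which the authors made with BWA, STAR and HTSeq on build dm3, per the submitters' processing notes. Versions, gene annotation and strand setting are not given in the sources used here. The 5 summary lines per file (14.48 to 20.93% of entries) were left out of totals and tests. Groups came from the sample titles. CPM are counts over gene totals.

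Counts were tested in R 4.3.3 with edgeR 4.0.16 (filterByExpr with minimum count 10, TMM scaling, robust quasi-likelihood fit of all 5 groups, 10 residual degrees of freedom, Benjamini-Hochberg over 10668 genes); 5014 genes were left out. The procedure was checked on simulated data in which every gene had the same spread and no library was shifted. That check therefore does not give error rates for members whose libraries differed more or in step. A standard error is the size of the log2 fold change over the square root of its F value. Alternatives were RLE or no size factors, no filter on low counts, only 2 groups in the fit, a replicate block, DESeq2 1.42.0 with its Wald test, leaving out each library, and control in place of control RNAi. Python 3.11.15, pandas 2.3.3, numpy 2.4.6 and matplotlib 3.10.9 did the rest.

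All 123 members matched the dm6 annotation by symbol. It served for gene order, strand, overlap and coding length only, since the counts used dm3.

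Members named include each one called in any comparison, the 5 co-receptors, the 10 with the highest mean CPM and 5 with the highest CPM per coding kilobase, and the 3 largest changes per comparison. Members and lists were chosen with earlier results of these data known. No 2 libraries of the same group were duplicates.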

Additional observations from a re-analysis of the deposited data

Results flagged for a closer look

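The 2 RNAi constructs share a label, a number block and a control, and the difference between them was tested directly for each tested member. In 13 members (18.1% of those tested, against 6.36% of all tested genes) construct 1 was lower than construct 2. For the receptors of fruit and food odours the log2 differences, construct 1 over construct 2, were -2.26 (Or22a), -2.13 (Or42b), -2.08 (Or47a), -1.17 (Or59b), -2.09 (Or92a), -2.86 (Or85b), -2.77 (Or98a) and -0.75 (Or10a). Or19b, a near-identical copy of Or19a, gave -3.09 on 2 counts in construct 1, a ratio of summed counts of 0.112 (95% exact interval 0.0129 to 0.453). The co-receptors gave -1.61 (Orco), -1.81 (Ir8a) and -0.51 (Ir76b), and Or65c gave -5.41. In the same comparison larval cuticle markers were higher in construct 1 for 2 of 5 genes and photoreceptor markers for 5 of 17. Among all tested genes 5.67% were higher. Glia markers were lower for 4 of 8, where 6.36% of all tested genes were lower. Replicate 2 of construct 1 and replicate 1 of construct 2 stood at opposite ends for Orco. The part of these in the differences was not tested.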

How the results depend on the processing

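Direction and call of each tested member were recomputed under other size factors, without the filter on low counts, with 2 groups in the fit, with a replicate block, with DESeq2 and without each library. Summed CPM of the Or genes with Orco and of the Ir genes moved by less than 1 SD with TMM scaling. Leaving out a library gave 11 to 25 members called for dpp overexpression over control, 36 to 42 for construct 1 over control RNAi, 11 to 25 for construct 2 over control RNAi, 5 to 18 for construct 1 over construct 2 and 48 to 53 for control RNAi over control. The replicate numbers did not pair the libraries (deviations of same-numbered libraries from their group means correlated between -0.11 and 0.19), and a replicate block gave 22, 41, 19, 11 and 54 calls in the same order of comparisons.

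Control in place of control RNAi moved the counts to 13 for construct 1 and 42 for construct 2. Of the 72 tested members, 60 had a negative log2 fold change with construct 1 over control RNAi and 41 over control. With construct 2 the numbers were 57 over control RNAi and 12 over control. Single values were followed only for called members, the 3 largest changes per comparison and the co-receptors. Among these values 37 turned sign. For construct 1 over control these were, as log2 fold changes, Ir25a 0.0066, Ir64a 0.80, Ir75c 0.44, Ir84a 0.19, Ir8a 0.0053, Ir92a 3.25, Or22a 9.42e-05, Or22b 0.77, Or35a 1.39, Or45b -0.088, Or46a 0.52, Or47b 0.78, Or56a 1.00, Or59b 0.14, Or67a 0.28, Or67c 0.12, Or67d 0.17, Or7a 0.90, Or82a 1.14, Or85d 0.029 and Orco 0.055. For construct 2 over control they were Ir64a 1.51, Ir76a 1.19, Ir76b 0.44, Ir8a 1.82, Ir92a 3.40, Or22b 1.77, Or42a 0.64, Or46a 0.87, Or47b 1.496, Or56a 1.52, Or65b 0.42, Or71a 0.043, Or82a 2.08, Or85e 0.66, Or92a 1.47 and Orco 1.66. Ir93a with construct 1 over control RNAi, at -0.01 and not called, gave 0.0078 on library totals only and ran between -0.22 and 0.18 when a library was left out. The cause of these changes was not tested. Most members sat under a few CPM, and with 3 libraries a group a difference smaller than the spread between libraries was not detectable at this depth.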
